A study of Ovis aries with 36 samples.

Results

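CLIP4, TACC2 and MAST2 are 3 genes of sheep whose protein families act on microtubules, and their mRNA levels are described here in 9 muscles of 4 lambs. They were selected on their counts in Semimembranosus (SM) and Supraspinatus (SS), since the study lists each of them among the genes that differ between these muscles, and for each the assembled locus with an Ensembl gene that holds at least 90% of the coordinates given for it was taken. The 3 loci stand among 31136 in the count files, of which 12461, these 3 included, had enough reads to be tested. Because SM vs. SS chose them, that contrast and every comparison with SM or SS are given as descriptions without a test, and tests are limited to the other 7 muscles and to the animals.

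Microtubules are hollow polymers of tubulin that grow and shrink at their ends and carry motors, vesicles and organelles. In skeletal muscle fibres most of them are not anchored at a single centrosome but start at the nuclear envelope and at Golgi elements, and they form a lattice beneath the membrane and between the myofibrils. The CLIP family binds growing microtubule ends through CAP-Gly domains, the TACC family binds centrosomes and microtubules through a conserved coiled coil, and the MAST kinases are serine/threonine kinases with a PDZ domain that associate with microtubules.

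The lambs were 4 unrelated Poll Dorset crosses of 14 months of age, acquired from different flocks, with no treatment or genotype contrast in the design. Each gave 1 sample from the superficial mid belly of SM, of SS, of the thigh muscles Rectus femoris (RF), Adductor (AD), Semitendinosus (ST) and Gluteobiceps (GB), of Gluteus medius (GM) in the rump, and of Psoas major (PM) and Longissimus lumborum (LL) in the loin, taken just after slaughter, which makes 36 bulk RNA-Seq libraries of whole tissue. Depth was between 3699148 and 6427422 counts per library, and 65.7% to 78.3% of these fell in 4 loci, which left 1009232 to 2151731 counts for all others. Animal 1 had the lowest total in 9 of 9 muscles. Levels are CPM (counts scaled to library size) after scaling by the trimmed mean of M-values (TMM), and 1 count was worth 0.122 to 0.34 CPM. They are not divided by transcript length, so the 3 genes are not compared with each other in level. In bulk tissue, fewer cells of a type and less RNA per cell cannot be told apart.

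CLIP4 (ENSOARG00000019611) lies on chromosome 3 from 35833574 to 35899190 of Oar_v3.1 and is the sole assembled locus at these coordinates. It had 25 to 132 counts per library, and 82.8% of the tested loci had a lower mean. TACC2 (ENSOARG00000006729) lies on chromosome 22 from 40823458 to 41053395, an interval that the files give to 8 loci at once. Its locus had 126 to 556 counts and a mean above 97.2% of the tested loci. MAST2 (ENSOARG00000002081) lies on chromosome 1 from 20207686 to 20388444, which the files give to 3 loci, and had 43 to 299 counts and a mean above 89.9% of the tested loci. All 3 genes were thus read in 36 of 36 libraries, CLIP4 with the fewest counts.

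In all 3 genes the highest muscle mean was in SS and the lowest in SM. Over all tested loci, 14.0% had their highest mean in SS and 16.7% their lowest in SM, and since SM vs. SS chose the genes nothing is read from that. The highest muscle mean was 2.40 times the lowest in CLIP4, 2.42 times in TACC2 and 2.52 times in MAST2.

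**Figure D1:**
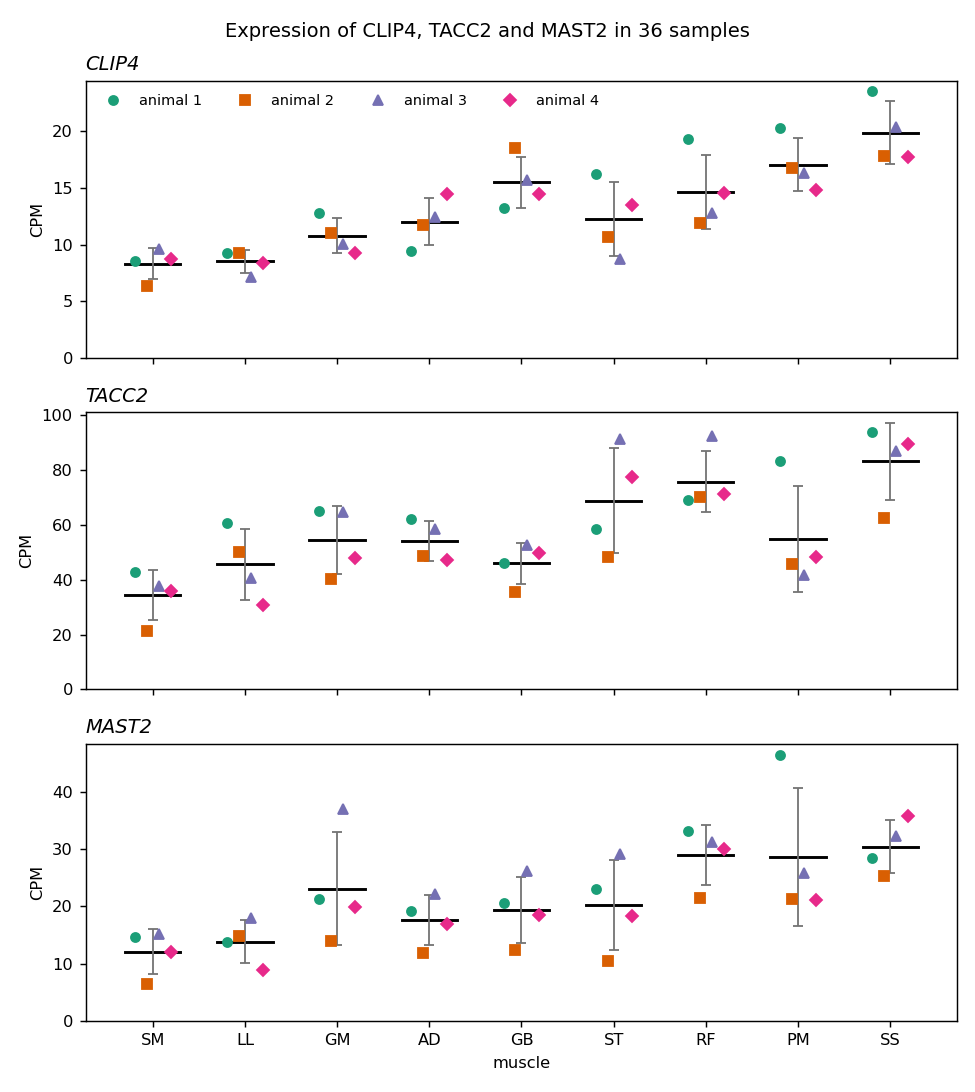
CPM of CLIP4, TACC2 and MAST2 (vertical axes, from 0) in 9 muscles (horizontal axis), with 1 point per animal, a black line at the mean of 4 animals and grey bars of 1 SD. SS has the highest mean and SM the lowest in each panel, LL is next to SM, and the highest mean after SS is in PM for CLIP4 and in RF for TACC2 and MAST2.

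CLIP4 belongs to the CLIP family, which is named for CAP-Gly domains. In SS it was at 23.6, 17.8, 20.4 and 17.7 CPM in animals 1 to 4, and in SM at 8.51, 6.37, 9.60 and 8.69 CPM. The lowest SS sample was therefore above the highest SM sample, and SS was 2.04 to 2.80 times SM within an animal. The fitted difference was 1.26 on the log2 scale (log2FC, SS minus SM), with a mean within-animal difference of 1.23 ± 0.24 (SD, n = 4).

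TACC2, a member of the transforming acidic coiled-coil family, was at 93.8, 62.5, 86.8 and 89.6 CPM in SS and at 42.9, 21.2, 37.9 and 35.7 CPM in SM. Animal 2 was the lowest of the 4 in both muscles, but its ratio of SS to SM, 2.94, was the highest. The fitted log2FC was 1.29, and the within-animal mean was 1.29 ± 0.19 (SD, n = 4).

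MAST2, a kinase that binds syntrophin and through it the dystrophin complex of the fibre membrane, was at 28.4, 25.2, 32.2 and 35.8 CPM in SS and at 14.6, 6.51, 15.2 and 12.0 CPM in SM. Its SS and SM samples did not overlap either, and the ratio of SS to SM went from 1.94 in animal 1 to 3.88 in animal 2. The fitted log2FC was 1.40, with a wider spread within animals than in the other genes (1.36 ± 0.44, SD, n = 4). Among all tested loci 2.42% were higher in SS past an FDR of 0.01 and a log2FC of 1, and 6.75% had SS samples that were all above SM samples.

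Slow fibre markers moved with the same contrast. Of 11 fixed markers, 8 could be matched to a single tested locus (MYL3, TNNT1, TNNC1, TNNI1, TPM3, MYOZ2, ATP2A2 and CASQ2), and their mean log2 CPM was 6.52 ± 0.39 in SS and 5.25 ± 0.62 in SM (SD, n = 4). Each of the 8 had a higher mean in SS than in SM. They could be matched only because the study lists them among genes that differ between muscles, most of all between ST and SS, so their direction is not independent evidence. Library measures differed between these muscles too: the share of counts in the 4 largest loci had a median of 75.1% in SM (70.6% to 78.3%) and 69.9% in SS (67.2% to 73.5%), and the share of the remaining counts in loci without an Ensembl gene had a median of 11.9% in SM (10.3% to 13.1%) and 14.2% in SS (8.79% to 14.9%). The part of the markers and of these measures in the difference of CLIP4, TACC2 and MAST2 between SS and SM was not tested. None of 46 markers of endothelial, connective, fat, vessel wall, satellite, nerve, immune and red blood cells could be matched to a locus, so the levels of these cell types are not given.

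Within single animals the order was similar but not fixed. SS was the highest of 9 muscles for CLIP4 in 3 of 4 animals, for TACC2 in 2 and for MAST2 in 2, and it was among the 3 highest in 4 of 4 animals for each gene. The exceptions were GB for CLIP4 in animal 2, RF for TACC2 in animals 2 and 3, PM for MAST2 in animal 1 and GM for MAST2 in animal 3. At the other end, the lowest muscle was SM or LL in 4 of 4 animals for each gene. Over all tested loci 27.7% had their lowest muscle mean in SM or LL, and nothing is read from this, since the genes were chosen for low SM.

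The 7 muscles that did not choose the genes gave the tests. Each gene was tested for any difference among ST, GB, GM, RF, LL, AD and PM with edgeR's quasi-likelihood test, with animal as a block and the false discovery rate (FDR) adjusted over all 12461 loci. CLIP4 and MAST2 differed among these muscles at an FDR of at most 0.01 and TACC2 did not pass, beside 4.18% of all tested loci that did. LL had the lowest mean of the 7 for each of the 3 genes, as for 13.9% of tested loci, and RF or PM the highest, as for 24.2%.

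CLIP4 was highest in PM of these 7 muscles, at 20.3, 16.8, 16.3 and 14.8 CPM, and lowest in LL, at 9.29, 9.26, 7.17 and 8.41 CPM. Every PM sample was above every LL sample. GB, at 13.3, 18.5, 15.7 and 14.5 CPM, and RF, at 19.3, 11.9, 12.8 and 14.5 CPM, were also wholly above LL. AD lay wholly above LL too, PM and GB wholly above GM, and PM wholly above AD. The share of all loci with such separation was not counted for pairs of these 7 muscles, so nothing is read from it. Means were 12.3 ± 3.3 CPM in ST, 12.0 ± 2.1 in AD and 10.8 ± 1.5 in GM (SD, n = 4), between those ends. The joint test gave an FDR of 0.000984 for CLIP4, at rank 259 of the tested loci by p, and 66.8% of its variance in log2 CPM lay between the 7 muscles, against a median of 26.0% over all tested loci. Without animal 2, 3 or 4 the FDR was 0.0116, 0.0333 or 0.0206, above 0.01, and without animal 1 it was 0.00461.

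Of the 21 pairs of the 7 muscles, CLIP4 had 3 with an FDR of at most 0.01, all with LL as the lower muscle, and none with a log2FC above 1. Over all loci 4.41% passed both thresholds in at least 1 of the 21 pairs and 5.91% passed the FDR alone. PM vs. LL had a log2FC of 0.99 (FDR = 0.000645, edgeR), beside 0.554% of loci at that FDR. GB vs. LL had 0.87 (FDR = 0.00358, 0.602% of loci) and RF vs. LL 0.76 (FDR = 0.00988, 0.979% of loci). PM was higher than LL in 4 of 4 animals, by 0.97 ± 0.18 on the log2 scale within animals (SD), and the same direction was seen in 4 of 4 animals for GB and for RF. The FDR rose above 0.01 for PM vs. LL without animal 3 (0.0223) or 4 (0.015), for GB vs. LL without animal 2 (0.0322), 3 (0.0648) or 4 (0.0467), and for RF vs. LL without any 1 of the animals (0.0124 to 0.112). Without animal 2 the log2FC of LL minus PM was -1.03 (FDR = 0.00605), past both thresholds. Without the animal block, GB vs. LL was at 0.0161 and RF vs. LL at 0.0321. RF vs. LL was also above 0.01 under both other scalings (0.0109 and 0.012), with no filter (0.0152) and with only the compared samples fitted (0.0162), but at 0.00609 with at least 10 counts in every sample. In 12 of the 21 pairs the unadjusted p was under 0.05, a count that 1.81% of tested loci reached, against a median of 2 pairs over all of them.

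TACC2 was highest in RF of the 7 muscles, at 69.2, 70.1, 92.5 and 71.3 CPM, and next in ST, at 58.7, 48.1, 91.4 and 77.3 CPM. The lowest were LL, at 60.7, 50.1, 40.7 and 30.8 CPM, and GB, at 46.0, 35.6, 52.6 and 49.8 CPM. RF lay wholly above LL, GB, GM and AD, while ST overlapped all of these. Here too the share of all loci with such separation was not counted. AD, GM and PM had close means of 54.1 ± 7.3, 54.5 ± 12.4 and 54.8 ± 19.3 CPM (SD, n = 4), and PM of animal 1, at 83.4 CPM, stood apart from the 41.7 to 48.3 CPM of the other PM samples. PM and GB, which held the highest means of CLIP4 among the 7, were thus ranked 4 and 7 of the 9 muscles for TACC2.

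For TACC2 the joint test gave an FDR of 0.0309 (edgeR's quasi-likelihood test, rank 858), and 43.5% of its variance lay between the 7 muscles. The call at 0.01 depended on the test: DESeq2 gave 0.00713, the likelihood ratio test 0.00966 and the quasi-likelihood test with no filter on low counts 0.0043. The FDR was higher without the animal block (0.228) and without animal 2 (0.0627), 3 (0.263) or 4 (0.241), and 0.0145 without animal 1. None of the 21 pairs was past an FDR of 0.01. The smallest was RF vs. LL, with a log2FC of 0.74 (FDR = 0.029, higher in RF in 4 of 4 animals), and its FDR was 0.282 without animal 3 and 0.267 without animal 4. In TACC2 7 pairs had an unadjusted p under 0.05, 5 of them with RF as the higher muscle and 2 with ST, and 12.4% of tested loci had at least as many.

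MAST2 was at 33.1, 21.4, 31.3 and 29.9 CPM in RF and at 46.4, 21.3, 25.8 and 21.1 CPM in PM, the 2 highest of the 7 muscles. In LL it was at 13.8, 14.8, 17.9 and 8.89 CPM, wholly below both, a separation whose share over all loci was not counted. The PM mean of 28.7 CPM rests in part on animal 1, whose 46.4 CPM was the highest value of MAST2 in any sample. GM, at 21.3, 13.9, 37.0 and 19.9 CPM, was the most spread relative to its mean, with a coefficient of variation of 42.8%. ST, GB and AD had means of 20.2 ± 7.9, 19.4 ± 5.7 and 17.5 ± 4.3 CPM (SD, n = 4).

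The joint test of the 7 muscles gave an FDR of 0.00245 for MAST2 (edgeR, rank 316), and 41.2% of its variance lay between them. Without animal 1 the FDR was 0.0679, without animal 4 it was 0.0491, and without the animal block it was 0.188. MAST2 was the only gene of the 3 with pairs past both thresholds. These were RF vs. LL, with a log2FC of 1.05 (FDR = 0.00202, 0.778% of loci called), and PM vs. LL, with 1.02 (FDR = 0.0039, 0.465% of loci called), each in the same direction in 4 of 4 animals. Neither pair was called without animal 1, where RF vs. LL had a log2FC of 0.97 (FDR = 0.0289) and PM vs. LL 0.72 (FDR = 0.237). Without animal 4 they had 0.84 (FDR = 0.108) and 0.96 (FDR = 0.0744), and without the block the FDRs were 0.111 and 0.207. In 11 of the 21 pairs the unadjusted p was under 0.05, and 2.62% of tested loci had at least as many.

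**Figure D2:**
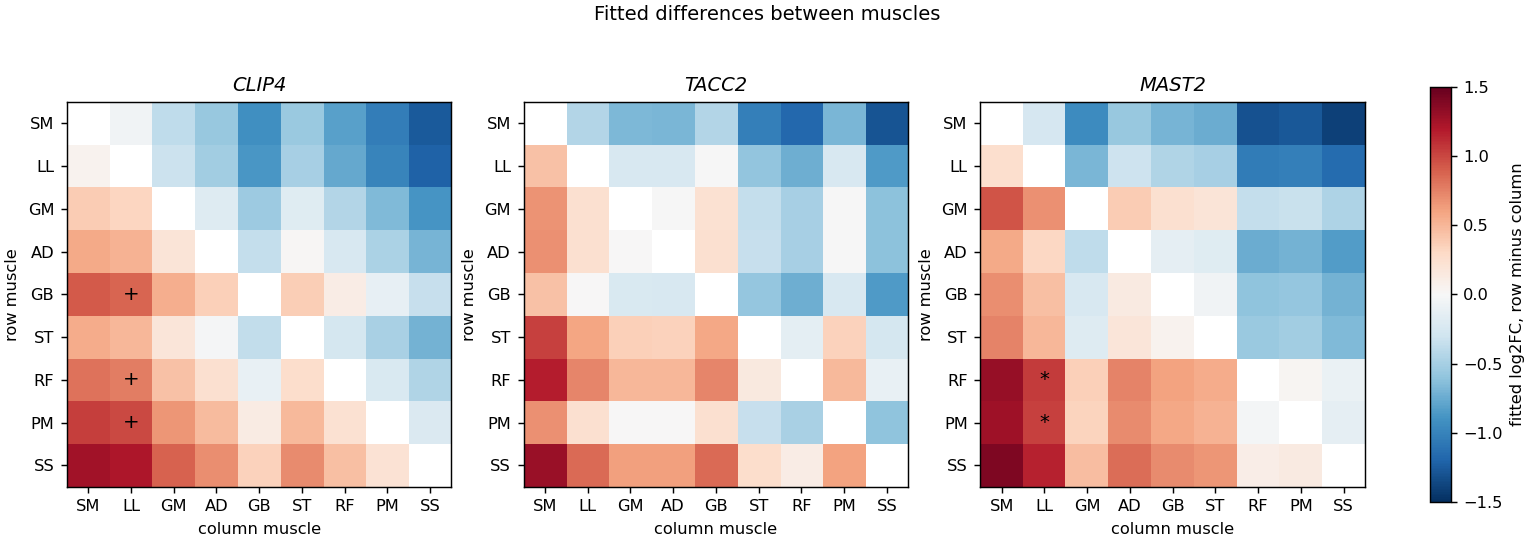
Fitted log2FC between muscles for CLIP4, TACC2 and MAST2, row muscle minus column muscle (red higher in the row, blue lower). Among the 21 tested pairs a plus marks an FDR of at most 0.01 and a star marks also a log2FC above 1; all 5 marks stand in the LL column, and pairs with SM or SS were not tested.

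Ordered by mean, the samples of each muscle overlapped those of the next muscle in 8 of 8 steps for each of the 3 genes. Overlap is likely between neighbours in such an order, so it cannot tell a gradient from steps. SS was above each of the 7 other muscles by 0.22 to 1.21 in fitted log2FC for CLIP4, by 0.12 to 0.85 for TACC2 and by 0.10 to 1.15 for MAST2. The smallest of these were SS vs. PM for CLIP4 and SS vs. RF for TACC2 and MAST2. SM was below each of the 7 by 0.05 to 1.04 for CLIP4, 0.44 to 1.18 for TACC2 and 0.25 to 1.30 for MAST2, with LL the nearest muscle in all 3 genes. For CLIP4 and MAST2, LL was above SM in 2 of 4 animals, and for TACC2 in 3.

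Across the 28 samples of the 7 muscles, with the mean of each animal subtracted, TACC2 and MAST2 had a Pearson r of 0.626 in log2 CPM, CLIP4 and MAST2 0.561, and CLIP4 and TACC2 0.127. Among the tested loci with an Ensembl gene MAST2 ranked 80th in likeness to TACC2 and 63rd in likeness to CLIP4, while TACC2 ranked 2887th in likeness to CLIP4. Of all tested loci, 99.3% were less like TACC2 than MAST2 was. For CLIP4, 99.4% were less like it than MAST2 was, and 72.2% less like it than TACC2 was. When the muscle means were subtracted as well, r was 0.646 for TACC2 and MAST2, 0.147 for CLIP4 and MAST2 and -0.10 for CLIP4 and TACC2. TACC2 and MAST2 thus also varied together beyond the muscle and animal means. The share of loci with such an r after both subtractions was not counted. These correlations are descriptions, since the samples share animals and libraries.

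**Figure D3:**
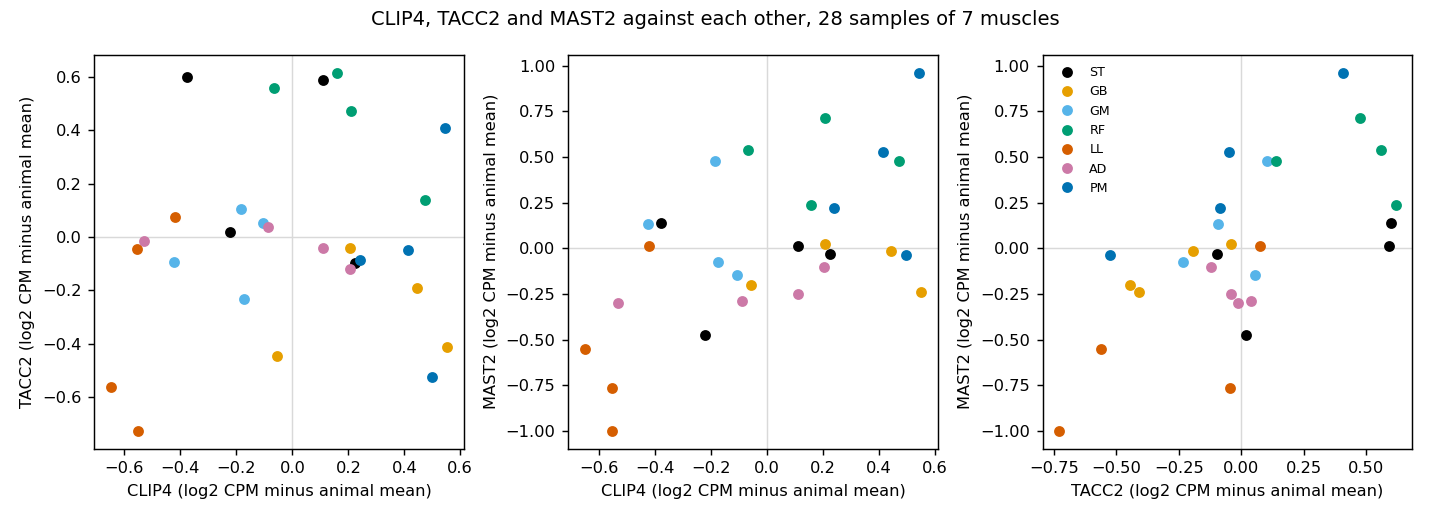
Log2 CPM minus the animal mean for each pair of CLIP4, TACC2 and MAST2 in the 28 samples of 7 muscles (colours). For TACC2 and MAST2 (right, r = 0.626), LL of animals 3 and 4 lies at the lower left and LL of animal 2 near the centre. RF samples and PM of animal 1 lie at the upper right. GB and PM samples lie mostly high for CLIP4 and mostly low for TACC2 (left, r = 0.127).

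The loci most like each gene over the same 28 samples had r of 0.753 to 0.812 for CLIP4, 0.740 to 0.845 for TACC2 and 0.735 to 0.788 for MAST2 (5 loci each, with an Ensembl gene). Most of these could not be named. KCNMA1, the pore-forming subunit of the large-conductance calcium-activated potassium channel, ranked 2 for MAST2 with r = 0.758. It could be named only because the study's list for SM vs. SS gives its coordinates, as for the 3 genes. ENSOARG00000009333, on chromosome 5 from 17177339 to 17188945, ranked 3 for CLIP4 (r = 0.754) and 5 for MAST2 (r = 0.735), the only locus on more than 1 of the 3 lists. The one most like TACC2 was ENSOARG00000004215 on chromosome 23 from 722193 to 799993 (r = 0.845, mean 8.90 CPM).

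Slow fibre markers are contractile and calcium-handling genes that slow-twitch fibres express at high levels. The 8 matched markers had their lowest mean of log2 CPM of the 7 muscles in ST, 3.15 ± 0.45, and their highest in PM, 6.76 ± 0.18 (SD, n = 4). All 8 passed the joint test of the 7 muscles (4.18% of all loci), from which nothing is read, since ST is among these muscles and the study's lists of genes that differ from ST made the match possible. None of the 3 genes followed this order in full. ST, the muscle with the least slow marker RNA, ranked 3 of the 9 muscles for TACC2 and 5 for CLIP4 and MAST2. GB, next after PM of the 7 in slow markers at 6.15 ± 0.27, ranked 7 for TACC2 and 6 for MAST2. CLIP4 shared the top of the order among the 7 muscles, with PM ranked 2 and GB ranked 3 of the 9.

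Over the 28 samples CLIP4 had a positive r with 8 of 8 slow markers (0.183 to 0.549), TACC2 with 0 of 8 (-0.49 to -0.05) and MAST2 with 7 of 8 (-0.01 to 0.484). Against the mean of the 8 markers r was 0.431 for CLIP4, -0.24 for TACC2 and 0.309 for MAST2. These values depended on ST: without it r was 0.634 for CLIP4, -0.03 for TACC2 and 0.389 for MAST2. Of 12 fast fibre markers, only PVALB, the calcium buffer parvalbumin, could be matched, through the list for SM vs. SS. PVALB was at 5.68 CPM in ST and 5.63 CPM in SS but at 0.152 CPM in SM and 0.134 CPM in LL, near the value of a single count, and its r was 0.573 with TACC2, 0.354 with MAST2 and 0.207 with CLIP4.

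**Figure D4:**
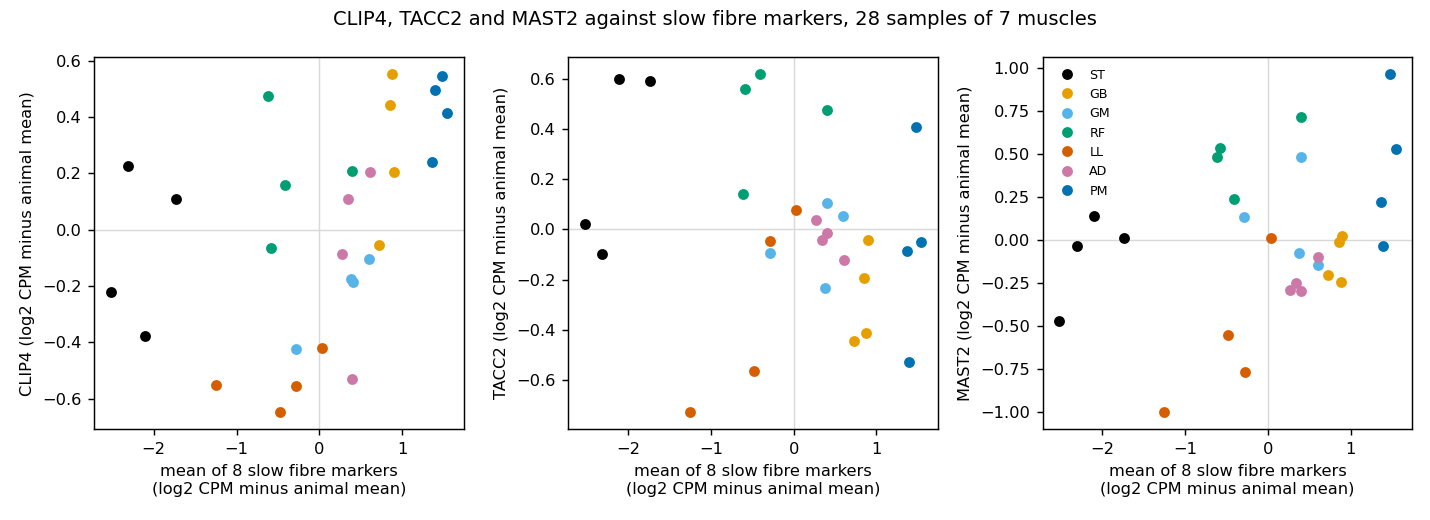
Log2 CPM minus the animal mean of CLIP4, TACC2 and MAST2 (vertical) against the mean of 8 slow fibre markers on the same scale (horizontal) in 28 samples of 7 muscles. ST samples lie far to the left in every panel, at middling CLIP4 and MAST2 and at middling to high TACC2, and PM samples lie to the right; r is 0.431, -0.24 and 0.309 from left to right.

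The animals differed most in MAST2. Its mean over the 9 muscles was 24.5 CPM in animal 1, 15.3 in animal 2, 26.4 in animal 3 and 20.1 in animal 4. Animal 2 was the lowest in 7 of 9 muscles and animal 3 the highest in 6. The test of animals gave an FDR of 7.45e-05 for MAST2 (edgeR's quasi-likelihood test with muscle in the model), and 17.0% of all loci passed 0.01. Animals took 37.1% of its variance over the 7 muscles, against a median of 17.3% over all loci. Without animal 2 the FDR was 0.0299, above 0.01.

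For TACC2 the animal means were 64.7, 47.0, 63.0 and 55.3 CPM, with animal 2 lowest in 5 of 9 muscles and animal 1 highest in 6. The FDR for animals was 0.0132, not past 0.01, though it was 0.00635 with DESeq2, 0.00772 with the likelihood ratio test and 0.00427 when loci with few counts were kept. It was 0.0295 with at least 10 counts in every sample, 0.0996 with only the samples of the 7 muscles in the fit, and 0.213 without animal 2. CLIP4 had animal means of 14.7, 12.7, 12.6 and 12.9 CPM and an FDR of 0.307, and 6.16% of its variance lay between animals. Animal 2 was lowest in at least 6 of 9 muscles in 4.24% of tested loci, and in 7 of 9 for MAST2. This share was counted for animal 2 alone and not for the other animals, so nothing is read from it. The median depth of animal 2 was 6025354 counts, close to 6004722 in animal 3 and 6080713 in animal 4, and animal 1 had a median of 4316863 counts. The libraries were run in 4 lanes of 9, and which samples shared a lane is not given in the sources used here, so its part was not tested. The lambs came from different flocks, so flock and genetic background cannot be told apart from animal.

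**Figure D5:**
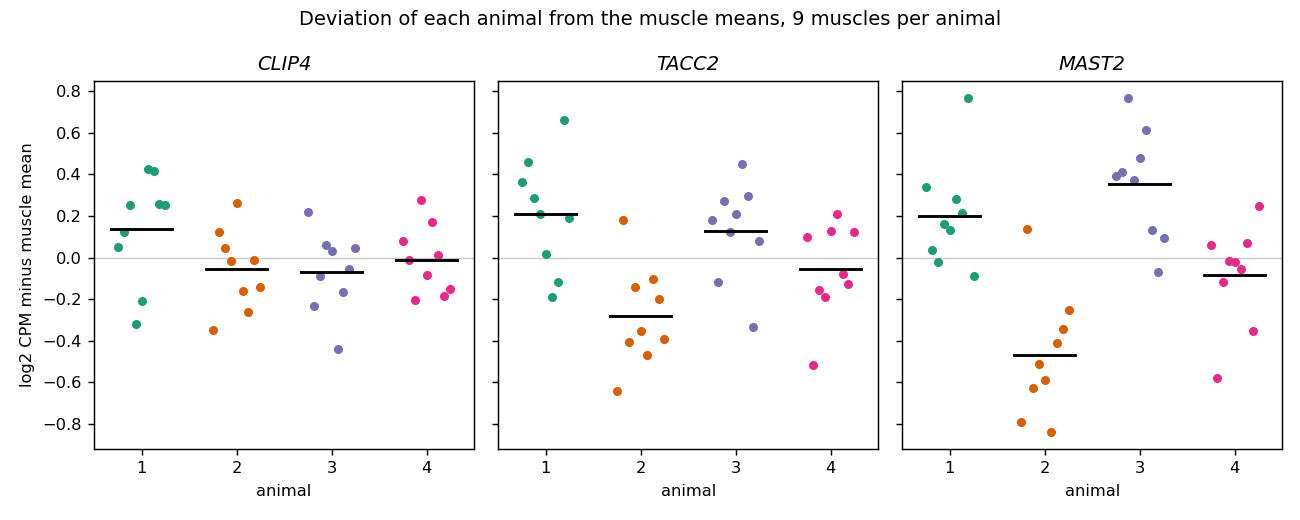
Deviation of each sample from its muscle mean in log2 CPM (vertical) by animal (horizontal), 9 muscles per animal as points, with a black line at the animal mean. For MAST2 animal 2 lies lowest and animal 3 highest (means of 15.3 and 26.4 CPM), for TACC2 animal 2 is also lowest and animal 1 highest (47.0 and 64.7 CPM), and the 4 animal means of CLIP4 lie closer together.

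Measures of the libraries were compared with the 3 genes in the 28 samples. Total counts had r of -0.11 with CLIP4, 0.244 with TACC2 and 0.107 with MAST2. The share of counts in the 4 largest loci had 0.243, 0.213 and -0.06, and the share of the remaining counts in loci without an Ensembl gene -0.28, -0.06 and -0.13, in the same order.

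Other loci at the same coordinates were read separately. Of the 7 further loci in the TACC2 interval, the unannotated XLOC_016948 was the only locus tested, with 11 to 107 counts per library, and the others had 0 to 40 counts over all 36 libraries. It was at 18.1, 15.5, 15.9 and 16.6 CPM in SS and at 14.3, 3.96, 2.93 and 4.43 CPM in SM, so that animal 1 was high in both. Its FDR was 0.606 in the joint test of the 7 muscles and 0.000618 between animals, and its r with TACC2 over the 28 samples was 0.606. The 2 unannotated loci in the MAST2 interval had 112 and 140 counts over the 36 libraries and were not tested. How reads that overlap several loci or lie on either strand were counted is not given in the sources used here, so the reads of TACC2 and XLOC_016948 may not be fully separate.

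The nearest tested loci with an Ensembl gene on either side of the 3 genes, between 15209 and 965056 bases away, were also read. Their log2FC of SS minus SM, given without a test, was between -0.63 and 0.66. Their joint FDR over the 7 muscles was 0.146 to 0.981 (edgeR's quasi-likelihood test). Few loci pass the joint test, so 6 loci say little.

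Other genes of the pathway could not be placed. The 9 lists of 123 microtubule genes (plus-end proteins, TACC partners, MAST family kinases, microtubule-associated proteins, tubulins and their modifying enzymes, motors, centrosome and nuclear envelope proteins, and muscle anchors) had 0 genes that the tables used here pair with an identifier of the files, so how the rest of the pathway behaved was not analysed here.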

How the data were processed

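RNA of 36 muscle samples was sequenced on an Illumina HiSeq instrument as paired-end reads. The authors aligned the reads to Oar_v3.1 with TopHat2 (2.0.13), assembled transcripts with Cufflinks (2.2.1) merged with the reference annotation, and obtained the deposited counts per locus with htseq-count, without normalization. Muscles came from the sample labels, and the number in each label was taken as the animal. Of 31530 entries, the 31136 distinct loci were used once each. A locus took a gene name only where it held the coordinates that the study gives, and 0 of 35057 rows of the reference gene table held an identifier of the files. File starts count from 0 and are given from 1.

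Loci were filtered with filterByExpr by muscle, scaled with TMM (factors 0.666 to 1.33) and fitted with muscle and animal in edgeR 4.0.16 (R 4.3.3, limma 3.58.1), with quasi-likelihood tests and Benjamini-Hochberg adjustment, and calls at FDR ≤ 0.01 and, for pairs, |log2FC| > 1. Log2 CPM used a prior count of 2. On simulated counts with 50 loci changed 2-fold in the joint test of the 7 muscles, 27 were recovered, and 50 of 50 at 3-fold. That number was used to pair the samples: samples with the same number had a mean r of 0.236 in their deviations from the muscle means. For different animals and muscles it was -0.08, a value that subtracting the muscle means itself pushes below 0. Alternatives were the likelihood ratio test, DESeq2 1.42.0, other scalings and filters, no animal block, and leaving out each animal. The members, gene lists and tests were chosen with earlier results of these data known. The named loci were the 3 genes, loci at their coordinates and the 5 loci most like each. KCNMA1 is named through the study's coordinates, and the fibre markers, neighbouring loci and library measures were added to describe them.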

Additional observations from a re-analysis of the deposited data

Results flagged for a closer look

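Of the 27 groups of 4 samples (3 genes in 9 muscles), 2 had a sample far from the other 3 by Dixon's test, and chance flags about 1 in 20 groups. TACC2 in RF of animal 3 was at 92.5 CPM, while the other RF samples were at 69.2 to 71.3 CPM. TACC2 in PM of animal 1 was at 83.39 CPM, while the other PM samples were at 41.7 to 48.3 CPM. In the same PM sample MAST2 was at 46.4 CPM and CLIP4 at 20.3 CPM. The unannotated locus XLOC_016948 in the TACC2 interval was at 20.5 CPM there. Each of these was the highest of the 4 PM samples.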

How the results depend on the processing

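Leaving out each animal, the loci past the joint test of the 7 muscles numbered 234 to 362 (521 with all animals), and the FDR of that test was 0.00461 to 0.0333 for CLIP4, 0.00407 to 0.0679 for MAST2 and 0.0145 to 0.263 for TACC2. The called pairs were 0 to 1 for CLIP4 and 0 to 2 for MAST2, the FDR for animals was 0.000119 to 0.0299 for MAST2 and 0.0134 to 0.213 for TACC2, and 7 to 8 of the 8 slow fibre markers passed. Without the animal block, which pairs samples of the same lamb, 180 loci passed, MAST2 had a joint FDR of 0.188 and 0 called pairs, and TACC2 a joint FDR of 0.228. The likelihood ratio test called 1026 loci, the fit with no filter 1429 and an FDR of 0.05 1126. TACC2 passed the joint test with the likelihood ratio test (0.00966), DESeq2 (0.00713), no filter (0.0043) and at an FDR of 0.05 (0.0309), and the test of animals likewise (0.00772, 0.00635, 0.00427 and 0.0132). With at least 10 counts in every sample, 5 slow fibre markers passed, since fewer were tested. The cause of the other changes was not tested. No result reversed. The log2FC of SM minus SS was -1.36 to -1.17 for CLIP4, -1.35 to -1.20 for TACC2 and -1.53 to -1.21 for MAST2 over all alternatives. Other scalings moved the median log2FC of all loci by at most 0.0374 in any pair of muscles. The largest shift among the alternatives was 0.0677, with at least 10 counts in every sample. The alternatives for the microtubule lists and promoter motifs were not run. CLIP4, with 25 to 132 counts per library, has the widest counting error, and differences of 2-fold were recovered in part only on simulated counts.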
